A study of Mus musculus with 10 samples.

Results

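The genes described here make, move and break down prostaglandin E2 (PGE2): *Pla2g4a*, *Ptgs1*, *Ptgs2*, *Ptges*, *Ptges2*, *Ptges3*, *Abcc4*, *Slco2a1* and *Hpgd*. They were found by gene symbol, and each of the 9 matched 1 of the 45706 genes of the count table. RNA was sequenced from whole melanomas of *Braf* V600E-driven mouse cells, taken 4 days after the cells were implanted in C57BL/6 mice that were 8 weeks old. The tumors form 3 groups. *Ptgs*+/+ tumors (labelled WT_CTR, 4 libraries) grew from unedited cells, and *Ptgs*-/- tumors (KO_CTR, 3 libraries) from cells in which *Ptgs1* and *Ptgs2* had been disrupted with CRISPR/Cas9. The third group (KO_aNK, 3 libraries) had the same *Ptgs*-/- cells in mice depleted of NK cells, by 200 µg of anti-NK1.1 together with 30 µg of anti-asialo GM1, given on days 0 and 2 according to the labels. The study's methods describe a different start, interval and dose for its antibody depletions, and which schedule these mice had could not be settled. They are called NK-depleted *Ptgs*-/- tumors below. Whether the edited cells are a single clone is not given in the sources used here. The host was unedited in every group, so host cells in a *Ptgs*-/- tumor still carry intact *Ptgs1* and *Ptgs2*.

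PGE2 synthesis starts when a phospholipase frees arachidonic acid from membranes. The cyclooxygenases COX-1 and COX-2 convert it to PGH2, and terminal synthases turn PGH2 into PGE2. The prostaglandin then leaves the cell, acts on the receptors EP1 to EP4, and is taken up again and inactivated by oxidation. COX-1 is usually expressed at a steady level, whereas COX-2 is induced by growth factors and inflammatory signals, and PGE2 from tumors is known to restrain NK cells and dendritic cells.

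Libraries were read from the 3′ end of transcripts, so that a count does not grow with gene length. Levels of different genes were set side by side on that basis. Other differences in capture between genes were not tested. The libraries held 8150556 to 12839174 counts. Levels are given as CPM, a gene's count per 1000000 counts of its library. Differences are log2 fold changes from edgeR's quasi-likelihood test over 14550 genes with enough counts for edgeR's filter, all 9 members among them. A gene was called when its Benjamini-Hochberg adjusted p, the false discovery rate (FDR), was at or under 0.05. Both comparisons with *Ptgs*+/+ tumors use the same 4 control libraries. *Ptgs*+/+ replicate 4 and *Ptgs*-/- replicate 3 carry another experiment code in their labels than the other 8 libraries. *Ptgs*+/+ replicate 3 stood apart for several genes below, and where a call of a member depends on any 1 library this is said. Nothing states that each library came from a separate mouse, so p-values measure the spread between these libraries. Most of 8 melanocytic markers were low in these tumors. *Mitf* had 166 to 339 counts and *Sox10* 2 to 63. *Dct* and *Pmel* had at most 8 counts in any library, and *Tyr*, *Tyrp1*, *Mlana* and *Mc1r* at most 2. As a check of the NK depletion, *Ncr1*, which encodes the NK cell receptor NKp46, had 20, 48 and 77 counts in *Ptgs*-/- tumors. It had 7 to 12 counts in *Ptgs*+/+ tumors and 0 in every NK-depleted library. A second NK cell marker, *Klrb1c*, had 69 to 166 counts in *Ptgs*-/- tumors and still 3 to 11 in NK-depleted ones.

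Promoters are shown for the 4 members called lower in *Ptgs*-/- tumors, to set side by side the DNA at the starts of genes that moved together. All 9 members matched the RefSeq table of GRCm38.p6, in 11 windows that run from 250 bases before to 50 bases after a transcription start. Capitals mark the motifs found, read on both strands: the CRE half-site TGACG, bound by CREB factors, the E-box CACGTG, and the EGR core GCGGGGG. The sequences read 5′ to 3′ along the gene, from chr1:150099781-150100080 (plus strand) for *Ptgs2*, chr2:36230176-36230475 (plus) for *Ptgs1*, chr2:30903248-30903547 (minus) for *Ptges* and chr10:128058732-128059031 (plus) for *Ptges3*.
Ptgs2: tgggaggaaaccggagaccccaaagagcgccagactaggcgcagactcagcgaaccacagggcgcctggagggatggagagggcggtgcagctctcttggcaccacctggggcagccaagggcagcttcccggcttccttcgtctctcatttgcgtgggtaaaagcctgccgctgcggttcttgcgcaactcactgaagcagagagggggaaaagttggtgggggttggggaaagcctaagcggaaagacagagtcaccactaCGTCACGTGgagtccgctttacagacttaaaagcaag
Ptgs1: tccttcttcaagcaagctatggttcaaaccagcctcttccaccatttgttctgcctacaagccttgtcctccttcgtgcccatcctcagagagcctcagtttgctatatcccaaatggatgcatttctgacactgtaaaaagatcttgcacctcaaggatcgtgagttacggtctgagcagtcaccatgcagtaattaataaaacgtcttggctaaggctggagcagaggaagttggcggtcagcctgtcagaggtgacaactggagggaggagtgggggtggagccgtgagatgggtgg
Ptges: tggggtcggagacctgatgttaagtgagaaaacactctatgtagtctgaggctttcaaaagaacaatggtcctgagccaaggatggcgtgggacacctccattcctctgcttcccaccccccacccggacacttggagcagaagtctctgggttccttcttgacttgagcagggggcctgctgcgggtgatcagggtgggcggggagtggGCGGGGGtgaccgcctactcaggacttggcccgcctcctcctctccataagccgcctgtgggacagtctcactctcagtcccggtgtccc
Ptges3: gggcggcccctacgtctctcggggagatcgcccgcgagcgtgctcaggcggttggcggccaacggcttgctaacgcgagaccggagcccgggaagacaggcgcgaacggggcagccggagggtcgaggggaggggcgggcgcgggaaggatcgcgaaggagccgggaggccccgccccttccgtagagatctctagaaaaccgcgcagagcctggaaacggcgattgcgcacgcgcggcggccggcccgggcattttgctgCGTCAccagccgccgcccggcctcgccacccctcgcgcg
The capitals of *Ptgs2* hold a CRE half-site on the minus strand that runs into an E-box, with 2 bases in common, starting 13 bases after the RefSeq start. *Ptges3* holds a CRE half-site 11 bases after its start, and *Ptges* an EGR core 40 bases before it. No listed motif lies in the *Ptgs1* window. Among 32851 promoter windows of the same length, 20.8% hold the CRE half-site, 7.15% the E-box and 10.8% the EGR core, so each is common. The full CRE (TGACGTCA, 1.79% of windows), the NF-kB letters GGNNTTTCC (5.82%) and the AP-1 letters TGANTCA (7.81%) are in none of the 11 member windows. Of the members not printed, *Ptges2* holds an E-box and an EGR core, *Slco2a1* a TATA box (TATAAA, 13.6% of windows) and an EGR core, *Hpgd* a TATA box, *Abcc4* an E-box and *Pla2g4a* a TATA box. A match describes the letters only. The printed windows differ in base composition, with a GC content of 50.7% in *Ptgs1*, 59.3% in *Ptgs2*, 60% in *Ptges* and 73.7% in *Ptges3*.

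In *Ptgs*+/+ tumors the pathway was led by its synthesis genes. *Ptgs2* had the highest mean level, at 253.5 ± 109.8 CPM (SD, n = 4), followed by *Ptges3* at 175 ± 15.0, *Ptges* at 157 ± 4.98 and *Ptgs1* at 152 ± 17.5 CPM. The libraries of these 4 genes overlapped, so their order is not resolved. *Pla2g4a* (73.4 ± 6.01 CPM), *Slco2a1* (56.4 ± 6.59) and *Abcc4* (23.6 ± 2.39) came next, and *Ptges2* (12.2 ± 1.35) and the breakdown gene *Hpgd* (2.38 ± 0.931) were lowest. In both *Ptgs*-/- groups *Ptges3* led and *Ptgs2* (43.0 ± 27.6 and 44.9 ± 4.56 CPM, SD, n = 3 each) came after *Slco2a1* and *Pla2g4a*. Among the other 8 genes the order of *Ptgs*+/+ tumors differed only in that *Slco2a1* stood above *Pla2g4a*, with overlapping libraries.

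In *Ptgs*-/- against *Ptgs*+/+ tumors, 4 of the 9 members were called and all 4 were lower. They were both cyclooxygenase genes and the synthases *Ptges* and *Ptges3*. *Ptgs1* and *Ptgs2* were disrupted in the edited cells by design, so *Ptges* and *Ptges3* are the called members that were not edited. The counts and medians of the 9 members include the edited genes. Among all genes tested, 23.1% were called in this comparison, 11% as lower. The median log2 fold change of the 9 members was -0.42, beside -0.01 over all genes. In the same 4 genes every *Ptgs*-/- library lay below every *Ptgs*+/+ library, which held for 12.5% of all genes. In NK-depleted *Ptgs*-/- against *Ptgs*+/+ tumors, *Ptgs1*, *Ptgs2* and *Ptges3* were called, all lower, beside 12.5% of all genes called and 5.87% called lower, with a median of -0.30 over the members and -0.01 over all genes. Libraries did not overlap there in 6 members, *Ptgs1*, *Ptgs2*, *Ptges*, *Ptges3* and *Pla2g4a* on the lower side (12% of all genes) and *Abcc4* on the higher side (15.1%). Between *Ptgs*-/- tumors with and without NK cells no member was called, beside 1.44% of all genes (0.921% as lower). There edgeR gave 1 member, *Hpgd*, an unadjusted p under 0.05, as it did 11.2% of all genes, and DESeq2's Wald test and the other settings called no member either. Libraries did not overlap there in 2 members, *Hpgd* and *Abcc4*, and in 17.6% of all genes. Under a stricter rule that also asked for a log2 change of 1.5 or more in either direction, *Ptgs2* was the 1 member left in each comparison with *Ptgs*+/+ tumors, beside 4.15% and 2.71% of all genes, and no member passed between the *Ptgs*-/- groups, beside 1.15%.

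**Figure D1:**
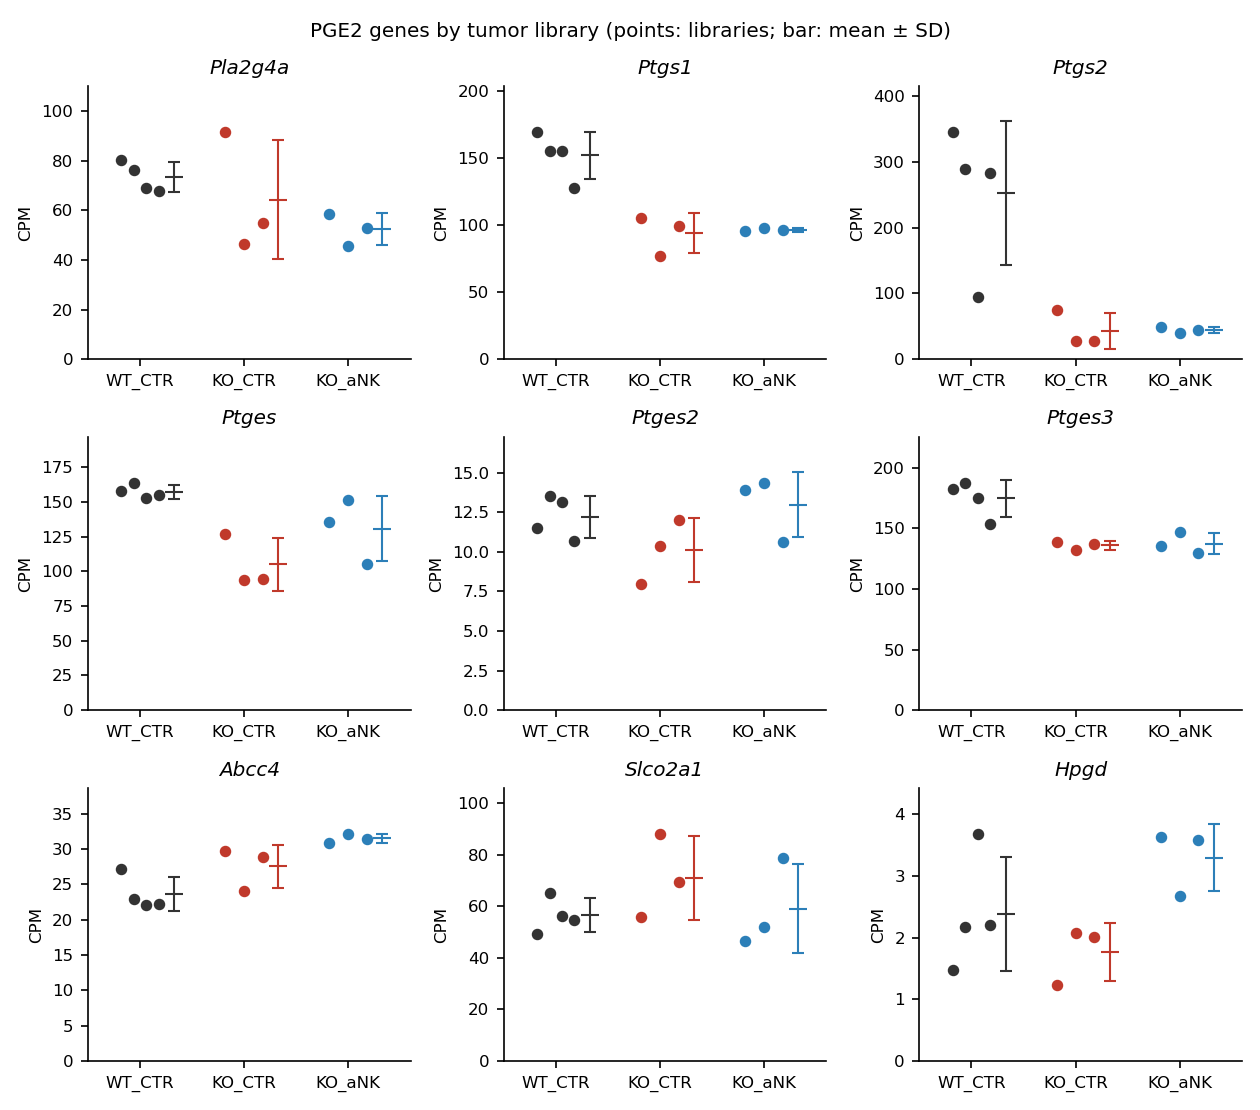
Levels of the 9 genes in CPM (vertical axes from 0) in each of the 10 tumor libraries, in replicate order within each group, with the group mean and SD beside the points. For *Ptgs1*, *Ptgs2*, *Ptges* and *Ptges3*, all libraries of both *Ptgs*-/- groups (KO_CTR, KO_aNK) lie below every *Ptgs*+/+ library (WT_CTR), and for *Ptges2*, *Slco2a1* and *Hpgd* both *Ptgs*-/- groups overlap with them.

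*Pla2g4a* (ENSMUSG00000056220, chromosome 1 of GRCm38 from 149829618 to 149961290, minus strand) encodes cytosolic phospholipase A2, which frees the arachidonic acid. *Ptgs*+/+ tumors had 80.5, 76.3, 69.1 and 67.8 CPM, *Ptgs*-/- tumors 91.9, 46.4 and 55.0, and NK-depleted *Ptgs*-/- tumors 58.6, 45.8 and 52.9. The NK-depleted libraries all lay below the *Ptgs*+/+ ones, whereas *Ptgs*-/- replicate 1 was the highest of all 10 libraries. Neither difference was called, at a log2 fold change of -0.25 (SE 0.201, adjusted p = 0.404 from edgeR) for *Ptgs*-/- tumors and -0.52 (SE 0.203, adjusted p = 0.122) with NK depletion. That single *Ptgs*-/- library decided the first result. Without it the log2 fold change of *Pla2g4a* was -0.60 in *Ptgs*-/- tumors (adjusted p = 0.0102) and -0.52 in NK-depleted tumors (adjusted p = 0.015, edgeR). The NK-depleted value was also called in the fit of those 2 groups alone (adjusted p = 0.0226, edgeR).

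*Ptgs2* (ENSMUSG00000032487, chromosome 1 from 150100031 to 150108227, plus strand) encodes COX-2, the inducible cyclooxygenase. Its levels in *Ptgs*+/+ tumors were 347, 290.1, 94.4 and 283 CPM, those in *Ptgs*-/- tumors 74.8, 27.2 and 27.0 CPM, and those after NK depletion 49.3, 40.2 and 45.0 CPM. *Ptgs*+/+ replicate 3 was far below the rest of its group yet above all 6 edited tumors, and *Ptgs*-/- replicate 1 was the highest of those. The fitted level in *Ptgs*-/- tumors was 0.163 times that in *Ptgs*+/+ tumors (95% interval 0.0809 to 0.327), a log2 fold change of -2.62 (SE 0.46, adjusted p = 0.00229 from edgeR). NK-depleted tumors gave 0.173 times (0.0865 to 0.346), or -2.53 (SE 0.457, adjusted p = 0.00433). Between the *Ptgs*-/- groups the difference was -0.09 (adjusted p = 0.957), with a 95% interval on the linear scale from 0.468 to 1.89 times. *Ptgs2* was called in both comparisons with *Ptgs*+/+ tumors in all 10 fits that left out 1 library. Without *Ptgs*+/+ replicate 3 its fold change was -2.90 in *Ptgs*-/- tumors, and without *Ptgs*-/- replicate 1 it was -3.29. In the 2 libraries of the second experiment code it stood at 283 CPM in the *Ptgs*+/+ and 27.0 CPM in the *Ptgs*-/- tumor, and among libraries of the first code its fold change was -2.29 (adjusted p = 0.0261, edgeR).

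*Ptgs1* (ENSMUSG00000047250, chromosome 2 from 36230426 to 36252272, plus strand) encodes COX-1, the constitutive cyclooxygenase. Its levels were 169.9, 155, 155 and 128 CPM in *Ptgs*+/+ tumors, 105, 77.0 and 99.6 in *Ptgs*-/- tumors, and 95.3, 97.8 and 96.3 in NK-depleted *Ptgs*-/- tumors. No *Ptgs*-/- library of either group reached the lowest *Ptgs*+/+ one. *Ptgs1* fell to 0.592 times (95% interval 0.487 to 0.721) in *Ptgs*-/- tumors (log2 fold change -0.76, SE 0.13, adjusted p = 0.00202 from edgeR) and to 0.62 times (0.51 to 0.754) in NK-depleted tumors (-0.69, SE 0.129, adjusted p = 0.00529). NK-depleted libraries were also the most alike, with a coefficient of variation of 1.28%, against 11.5% and 16.0% in the other 2 groups. In the pair of the second experiment code the levels were 99.6 and 128 CPM, a log2 ratio of -0.36, against a fold change of -0.84 among libraries of the first code (adjusted p = 0.00681, edgeR).

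Neither gene was near the limit of detection in *Ptgs*-/- tumors, where *Ptgs1* had 744 to 1092 counts and *Ptgs2* 263 to 610 in a library, against a floor of 3 counts. These counts do not check the edit. The tags lie near the 3′ end and need not fall in the edited part of the gene, an edited gene can still be transcribed, and host cells contribute intact transcripts. In bulk RNA, fewer cells of a type and less RNA per cell cannot be told apart either.

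*Ptgs2* had more counts than *Ptgs1* in most *Ptgs*+/+ tumors and fewer in all 6 edited tumors. Of the counts of *Ptgs1* and *Ptgs2* together, *Ptgs2* made up 67.1%, 65.2%, 37.8% and 68.9% in the *Ptgs*+/+ tumors, 41.5%, 26.1% and 21.3% with the edited cells, and 34.1%, 29.1% and 31.9% after NK depletion. Replicate 3 of the *Ptgs*+/+ tumors was the exception, with an exact 95% binomial interval from 36.0% to 39.6%, where *Ptgs*-/- replicate 1 had 39.0% to 44.1%. These intervals cover counting error only, and the reads are not known to be independent molecules. Group means with SD were 59.7% ± 14.7 for the 4 *Ptgs*+/+, 29.7% ± 10.6 for the 3 *Ptgs*-/- and 31.7% ± 2.48 for the 3 NK-depleted tumors, and the *Ptgs*+/+ and *Ptgs*-/- groups overlapped through that 1 library.

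**Figure D2:**
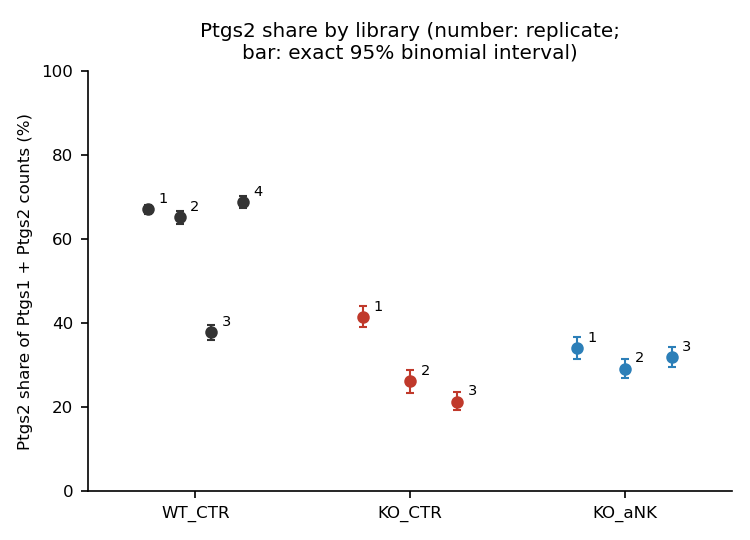
*Ptgs2* as a percentage of the *Ptgs1* and *Ptgs2* counts of each library (vertical axis 0 to 100%), with exact 95% binomial intervals and the replicate number beside each point. *Ptgs*+/+ replicate 3, at 37.8%, lies below *Ptgs*-/- replicate 1, at 41.5%, while the other 3 *Ptgs*+/+ libraries lie at 65.2% to 68.9%.

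Markers of other cell types moved between the same groups. The summed level of 7 neutrophil markers was 357 to 595 CPM in *Ptgs*+/+, 67.6 to 96.2 in *Ptgs*-/- and 125 to 181 CPM in NK-depleted *Ptgs*-/- tumors. *Mmp9* was the largest part of the sum in each group, at means of 290, 33.5 and 51.1 CPM. *S100a8*, *S100a9*, *Cxcr2* and *Mmp9* were called lower in both comparisons with *Ptgs*+/+ tumors, and *Ly6g* had 0 to 5 counts throughout. The list did not move one way: *Retnlg* was called higher with NK depletion (log2 fold change 1.77, adjusted p = 0.0139 from edgeR), and *Csf3r* was 3.38, 5.40 and 4.64 CPM in the 3 groups and was not called. *Ptgs*+/+ replicate 3, low for *Ptgs2*, had the lowest neutrophil sum of its group, at 357 CPM against 532 to 595. *Ptgs*-/- replicate 1, the highest edited tumor for *Ptgs2* at 74.8 CPM, had the lowest neutrophil sum of all libraries, at 67.6 CPM. These are single libraries, and a relation between the levels of *Ptgs2* and of these markers was not tested. Platelet markers, of a cell type known for COX-1, summed to 451 to 531, 247 to 357 and 263 to 300 CPM, most of it *Pf4*. This list did not move one way either: *Itga2b* was 17.1, 22.6 and 19.2 CPM in the 3 groups and was not called. *Gp9*, *Gp1ba* and *Gp5* had at most 7 counts in any library. *Pf4* and *Ppbp* were called lower in both comparisons with *Ptgs*+/+ tumors. Macrophage markers went the other way, from 1725 to 2043 CPM in *Ptgs*+/+ tumors to 2781 to 4305 in *Ptgs*-/- and 2557 to 2894 in NK-depleted tumors, with 6 and 3 of 8 called higher. Fibroblast markers summed to 7607 to 10520, 13500 to 16690 and 10750 to 13690 CPM, with 4 and 1 of 7 called higher. Most of the sum was *Col1a1*, *Col1a2* and *Col3a1*. Within this list *Pdgfrb* went the other way, at 74.8, 56.7 and 64.3 CPM, and was not called. The part of these cells in the *Ptgs1* and *Ptgs2* differences was not tested.

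**Figure D3:**
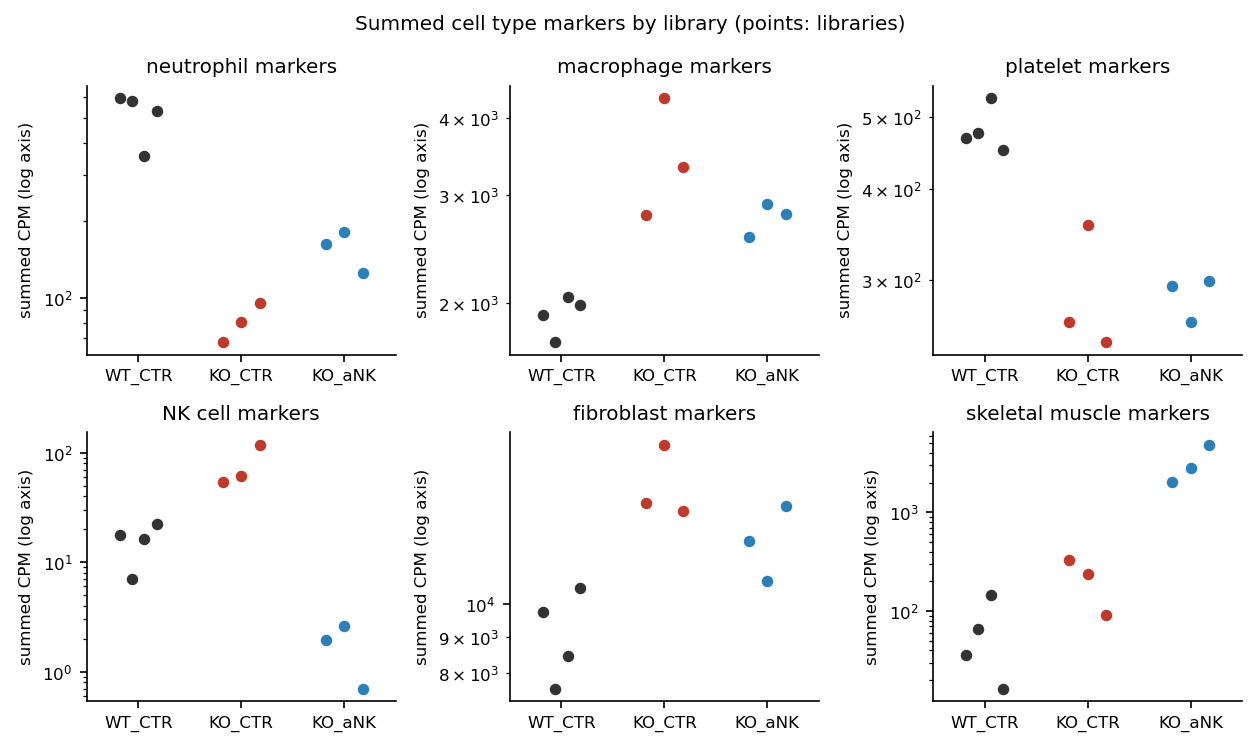
Summed CPM of marker genes of 6 cell types in each library, on logarithmic vertical axes. Neutrophil and platelet sums are lower in both *Ptgs*-/- groups (KO_CTR, KO_aNK) than in *Ptgs*+/+ tumors (WT_CTR), macrophage and fibroblast sums are higher, NK cell sums are lowest in KO_aNK, and skeletal muscle sums are highest there, at 2046 to 4846 CPM.

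Of the 3 terminal synthase genes, *Ptges* and *Ptges3* were called lower in *Ptgs*-/- tumors and *Ptges2* was not, and differences between the genes were not tested. *Ptges* (ENSMUSG00000050737, chromosome 2 from 30889471 to 30929863, minus strand) encodes microsomal PGE synthase 1, the inducible enzyme that works with COX-2. It stood at 158, 164, 153 and 155 CPM in *Ptgs*+/+ tumors, 127, 93.5 and 94.6 in *Ptgs*-/- tumors, and 136, 151 and 105 in NK-depleted *Ptgs*-/- tumors. All edited tumors lay below the narrow *Ptgs*+/+ range, although NK-depleted replicate 2 came close to the lowest *Ptgs*+/+ library. The fall was called in *Ptgs*-/- tumors, to 0.641 times (95% interval 0.512 to 0.802; log2 fold change -0.64, SE 0.148, adjusted p = 0.00968 from edgeR), and not with NK depletion, at 0.812 times (0.651 to 1.01; -0.30, SE 0.146, adjusted p = 0.215). The difference between the 2 *Ptgs*-/- groups was itself not called (-0.34, SE 0.156, adjusted p = 0.446). The call was lost without *Ptgs*-/- replicate 2 (adjusted p = 0.0586), without replicate 3 (adjusted p = 0.0526) and among libraries of the first experiment code (adjusted p = 0.0737, edgeR), with fold changes between -0.53 and -0.55.

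*Ptges3* (ENSMUSG00000071072, chromosome 10 from 128058954 to 128077272, plus strand) encodes cytosolic PGE synthase, also known as p23, a co-chaperone of HSP90. Its libraries had 183, 188, 175 and 154 CPM in *Ptgs*+/+ tumors, 139, 132 and 137 in *Ptgs*-/- tumors, and 135, 147 and 129.8 in NK-depleted tumors. All 6 edited tumors were below the 4 *Ptgs*+/+ ones, in a narrow range. The decrease was modest, to 0.746 times (95% interval 0.641 to 0.87; log2 fold change -0.42, SE 0.101, adjusted p = 0.0117 from edgeR) and 0.768 times (0.659 to 0.894; -0.38, SE 0.101, adjusted p = 0.0299). In *Ptgs*-/- tumors the call was lost without replicate 3 (adjusted p = 0.0527). With NK depletion it was lost without *Ptgs*+/+ replicate 1 or 2, without NK-depleted replicate 1 or 3, and with no filter on low counts, at adjusted p from 0.0743 to 0.127. Its processed pseudogene *Ptges3-ps* had at most 6 counts in a library.

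*Ptges2* (ENSMUSG00000026820, chromosome 2 from 32395896 to 32405772, plus strand) encodes microsomal PGE synthase 2. Levels were low, at 11.5, 13.5, 13.2 and 10.7 CPM in *Ptgs*+/+ tumors, 7.98, 10.4 and 12 in *Ptgs*-/- tumors, and 13.9, 14.4 and 10.6 in NK-depleted tumors, and the groups overlapped. No difference was called, and the log2 fold changes were -0.33 (95% interval -0.73 to 0.07) and 0.05 (-0.34 to 0.45) against *Ptgs*+/+ tumors. The first interval holds the fitted values of *Ptges* and *Ptges3* in that comparison.

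**Figure D4:**
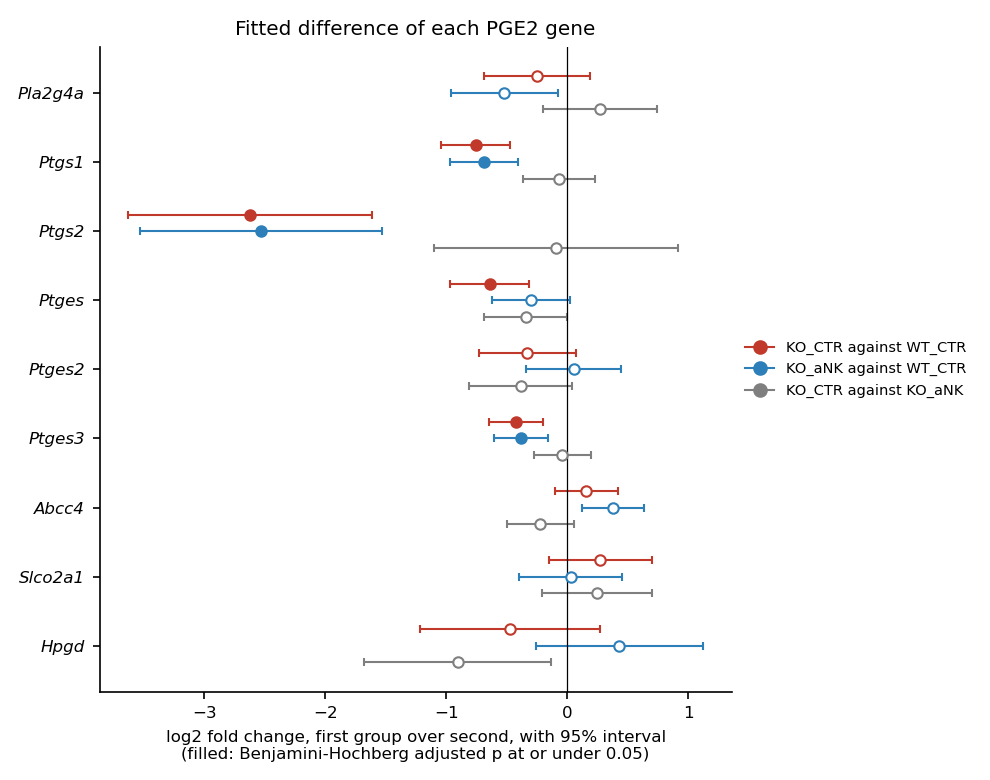
Fitted log2 fold change of each gene in the 3 comparisons (horizontal axis, first group over second), with 95% intervals and filled points where the adjusted p is at or under 0.05. *Ptgs2* has the largest decrease in both comparisons with *Ptgs*+/+ tumors, and no point of KO_CTR against KO_aNK is filled.

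The export pump and the import carrier were not called in any comparison. *Abcc4* (ENSMUSG00000032849, chromosome 14 from 118482692 to 118706219, minus strand) encodes MRP4, which pumps PGE2 out of cells. It had 27.2, 23.0, 22.1 and 22.3 CPM in *Ptgs*+/+ tumors, 29.7, 24.1 and 28.9 in *Ptgs*-/- tumors, and 30.9, 32.2 and 31.5 in NK-depleted *Ptgs*-/- tumors. The NK-depleted libraries were the 3 highest of all 10, with a coefficient of variation of 2.02%. Their log2 fold change against *Ptgs*+/+ tumors, 0.38 (SE 0.117, adjusted p = 0.0543 from edgeR), was just short of the threshold. It passed under 4 of the 10 other settings and 2 of the 10 fits that left out 1 library, with adjusted p from 0.0383 to 0.157 over all of them. In *Ptgs*-/- tumors the value was 0.16 (95% interval -0.10 to 0.42, adjusted p = 0.362). Skeletal muscle markers, 2046 to 4846 CPM in NK-depleted tumors against at most 332 CPM in any other library, were also highest in this group, and their part in the *Abcc4* level was not tested.

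*Slco2a1* (ENSMUSG00000032548, chromosome 9 from 102988712 to 103096002, plus strand) encodes the prostaglandin transporter PGT, which takes PGE2 up for breakdown. *Ptgs*+/+ tumors had 49.4, 65.3, 56.2 and 54.8 CPM, *Ptgs*-/- tumors 55.7, 88.2 and 69.2, and NK-depleted tumors 46.6, 51.9 and 78.6. The groups overlapped in every comparison, with 1 high library each in *Ptgs*-/- (replicate 2) and NK-depleted tumors (replicate 3). Its log2 fold changes against *Ptgs*+/+ tumors were 0.27 (95% interval -0.15 to 0.70) and 0.03 (-0.40 to 0.46).

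*Hpgd* (ENSMUSG00000031613, chromosome 8 from 56294585 to 56321043, plus strand) encodes 15-hydroxyprostaglandin dehydrogenase, the enzyme that inactivates PGE2. It was the lowest member, with counts of 19, 21, 42 and 21 in *Ptgs*+/+, 10, 20 and 22 in *Ptgs*-/- and 34, 29 and 36 in NK-depleted tumors, or 1.23 to 3.69 CPM over all libraries. *Ptgs*+/+ replicate 3 was the highest of all in CPM, and each *Ptgs*-/- library lay below each NK-depleted one, as did 7.16% of all genes. That difference, -0.91 (SE 0.353, 95% interval -1.68 to -0.13), was the largest of any member between the 2 *Ptgs*-/- groups and was not called (adjusted p = 0.356 from edgeR). Against *Ptgs*+/+ tumors the values were -0.47 (adjusted p = 0.346) and 0.43 (adjusted p = 0.427). At these counts a change of the size seen in *Ptges3* would not be resolved, given standard errors of 0.316 to 0.353.

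Transcripts annotated next to the cyclooxygenase genes did not follow them closely. *Gm43621* lies on the opposite strand with an exon over *Ptgs1*, and whether counting used strand is not stated, so reads of the 2 genes may not be separable. With 58 to 178 counts a library it was much below *Ptgs1*, and its log2 fold changes were 0.10 in *Ptgs*-/- and -0.61 in NK-depleted tumors against *Ptgs*+/+ tumors, neither of them called by edgeR. *Ptgs2os*, transcribed away from *Ptgs2* and without overlap with it, was 4.39 CPM in *Ptgs*+/+, 3.80 in *Ptgs*-/- and 2.39 CPM in NK-depleted tumors. Its log2 fold change was -0.28 in the first comparison (adjusted p = 0.43) and -0.91 with NK depletion (adjusted p = 0.0334, edgeR), the latter above 0.05 in 6 of 10 fits that left out 1 library, among them each NK-depleted library. *Ptgs2os2* had 7 to 28 counts and was not called.

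The rest of the pathway was followed in 60 genes of 5 lists, of which 39 were high enough to be tested. In *Ptgs*-/- against *Ptgs*+/+ tumors 12 of the 39 were called, 7 higher and 5 lower, beside 12.1% and 11% of all genes called in those directions. With NK depletion 5 were called, 3 higher and 2 lower, beside 6.63% and 5.87%. Between the 2 *Ptgs*-/- groups edgeR called 0, and 1, *Slco3a1*, had an unadjusted p under 0.05. The medians of the 39 genes were -0.04, 0.06 and -0.05. Against *Ptgs*+/+ tumors the first count was 3 without *Ptgs*+/+ replicate 2, 4 without *Ptgs*-/- replicate 2, and 5 without *Ptgs*-/- replicate 3 or *Ptgs*+/+ replicate 1 or 4. The second was 2 without NK-depleted replicate 2 or 3, and 3 without NK-depleted replicate 1, *Ptgs*-/- replicate 3 or *Ptgs*+/+ replicate 1 or 2. Of the single calls, those of *Slco3a1*, *Ptger4* and *Pla2g12a* in *Ptgs*-/- tumors and of *Pla2g2d* and *Dagla* with NK depletion were made in all 10 fits that left out 1 library, and the others in fewer. With NK depletion the call of *Ptger4* was made in 8 of the 10 fits, that of *Pla2g12a* in 3 and that of *Mboat2* in 2. In *Ptgs*-/- tumors *Abcc5* and *Ptger2* were called in 7, *Pla2g2d* and *Mboat2* in 5, and *Dagla*, *Pla2g15* and *Slco5a1* in 4.

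Among the other genes of arachidonate release, 4 of 11 tested were called in *Ptgs*-/- tumors, 3 higher and 1 lower, and 3 with NK depletion, beside 23.1% and 12.5% of all genes called. *Pla2g2d*, a secreted phospholipase of lymphoid tissue, was 1.86 CPM in *Ptgs*+/+, 4.24 in *Ptgs*-/- and 5.75 in NK-depleted tumors (log2 fold changes 1.11 and 1.57, adjusted p = 0.032 and 0.00888 from edgeR). *Dagla*, which makes the arachidonate precursor 2-arachidonoylglycerol, was 2.69, 4.56 and 5.98 CPM (0.69 and 1.12, adjusted p = 0.0405 and 0.00585). Libraries of both genes were higher in all 6 edited tumors than in all 4 *Ptgs*+/+ ones. Of all genes, 18.1% lay wholly above *Ptgs*+/+ tumors in *Ptgs*-/- tumors and 15.1% in NK-depleted ones. The secreted phospholipase gene *Pla2g12a* fell by 0.52 and 0.37 on the log2 scale (adjusted p = 0.00532 and 0.0445), and *Pla2g15*, a lysosomal phospholipase, rose by 0.44 in *Ptgs*-/- tumors (adjusted p = 0.0365, edgeR) with overlapping libraries.

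Among genes listed for the return of fatty acids to phospholipids, 3 of 11 tested were called in *Ptgs*-/- tumors and 1 with NK depletion. All were lower, and these counts were near or under the 23.1% and 12.5% of all genes. The list was not limited to enzymes selective for arachidonate, so its changes do not measure arachidonate re-esterification. *Mboat2* was 5.59 CPM in *Ptgs*+/+, 2.47 in *Ptgs*-/- and 2.27 in NK-depleted tumors (log2 fold changes -1.25 and -1.33, adjusted p = 0.0337 and 0.0408 from edgeR). *Mboat1* and *Mboat7*, lysophospholipid acyltransferase genes as *Mboat2* is, were called in *Ptgs*-/- tumors, at -0.62 and -0.33 (adjusted p = 0.0343 and 0.0462 from edgeR). Both calls were fragile. *Mboat1* was called in 3 of the 10 fits that left out 1 library, and was not called without any one *Ptgs*-/- library. *Mboat7* was called in 1 of these fits, the one without *Ptgs*+/+ replicate 4, and in 1 of 10 other settings, DESeq2's Wald test. The 6 other genes of prostaglandin breakdown, which encode prostaglandin reductases and carbonyl reductases, gave no call in any comparison, and the highest of them, *Cbr2*, was 193.5, 304 and 230.5 CPM (log2 fold change 0.60 in *Ptgs*-/- tumors, adjusted p = 0.122).

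Of the other organic anion transporters, 3 of 7 tested were called in *Ptgs*-/- tumors and 0 with NK depletion, where 2 had an unadjusted p under 0.05 in edgeR, beside 23.1% and 12.5% of all genes called and 27.0% with such a p with NK depletion. *Slco3a1*, a carrier of prostaglandins among other anions, had 33.9, 27.1, 31.1 and 33.8 CPM in *Ptgs*+/+ tumors, 53.4, 99.8 and 57.7 in *Ptgs*-/- tumors, and 31.8, 36.4 and 47.9 in NK-depleted tumors. Each *Ptgs*-/- library lay above every library of both other groups, as did 18.1% of all genes against *Ptgs*+/+ and 10.4% against NK-depleted tumors. The log2 fold change was 1.10 against *Ptgs*+/+ tumors (adjusted p = 0.00354) and 0.84 against NK-depleted tumors (adjusted p = 0.137, edgeR), where DESeq2's Wald test gave an adjusted p of 0.0265 and edgeR's likelihood ratio test 0.0269. *Abcc5* was higher by 0.54 and *Slco5a1* fell by 0.76 in *Ptgs*-/- tumors (adjusted p = 0.0225 and 0.0373).

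Of the 4 PGE2 receptor genes, *Ptger4* (EP4) was 16.6, 34.0 and 28.3 CPM in *Ptgs*+/+, *Ptgs*-/- and NK-depleted *Ptgs*-/- tumors (log2 fold changes 0.98 and 0.74, adjusted p = 0.0023 and 0.016 from edgeR), and *Ptger2* (EP2) 1.32, 3.41 and 3.07 CPM (1.29 and 1.16, adjusted p = 0.029 and 0.0684). Counts of *Ptger2* were small, at 8 to 23 a library in *Ptgs*+/+, 18 to 51 in *Ptgs*-/- and 22 to 39 in NK-depleted tumors. *Ptger1* and *Ptger3* were not called in any comparison.

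**Figure D5:**
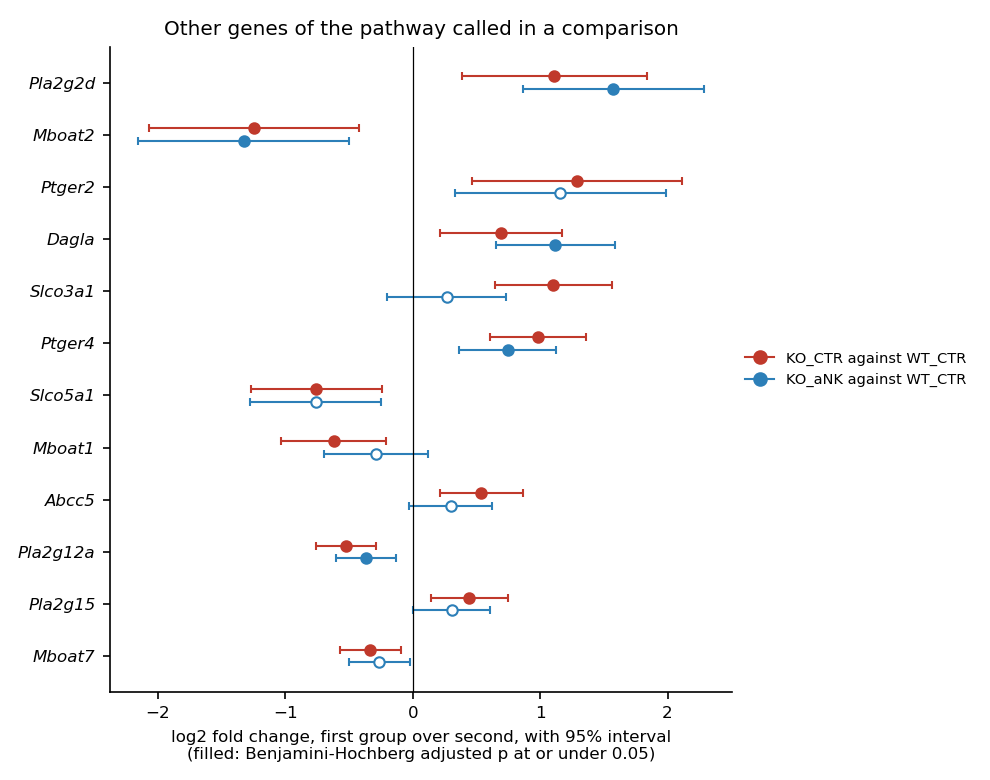
Log2 fold changes with 95% intervals of the 12 other pathway genes called in at least 1 comparison with *Ptgs*+/+ tumors, filled where the adjusted p is at or under 0.05. *Pla2g2d*, *Dagla* and *Ptger4* are filled above 0 in both comparisons, *Mboat2* and *Pla2g12a* below 0 in both, and *Slco3a1* in *Ptgs*-/- tumors (KO_CTR) alone.

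Across the 10 libraries, levels of *Ptgs1*, *Ptgs2*, *Ptges* and *Ptges3* varied together. Those of *Pla2g4a* went with them less closely, and those of *Ptges2* did not follow them. As a description over libraries that share groups, Pearson's r of log2(CPM + 1) was 0.94 between *Ptgs1* and *Ptges3*, 0.87 between *Ptgs1* and *Ptgs2*, 0.82 between *Ptgs2* and *Ptges3*, and 0.77 and 0.79 between *Ptges* and *Ptgs1* or *Ptgs2*. For *Pla2g4a* it was 0.702 with *Ptgs1*, 0.721 with *Ptgs2*, 0.522 with *Ptges* and 0.569 with *Ptges3*. For *Ptges2* it was 0.217 with *Ptgs1*, 0.0142 with *Ptgs2*, 0.379 with *Ptges*, 0.353 with *Ptges3* and -0.379 with *Pla2g4a*. *Abcc4* and *Slco2a1* ran opposite to *Ptgs1*, *Ptgs2*, *Ptges* and *Ptges3*, with r between -0.30 and -0.75. The groups differ in level, so these values include the differences between groups. *Ptgs1*, *Ptgs2*, *Ptges* and *Ptges3* are also the members called lower in *Ptgs*-/- tumors, so a high r among them is in part built in. Among the 9073 genes with a mean of at least 10 CPM, those most like each member over the 10 libraries were *Mapk6*, *Dlx1* and *Ergic1* for *Ptgs1* (r = 0.984, 0.98 and 0.979) and *Rabggtb*, *Pkn3* and *Tbx20* for *Ptgs2* (0.984, 0.979 and 0.979). *Ptges3* was most like *Etv1*, *Rwdd4a* and *Ttf2* (0.994, 0.983 and 0.982), and *Ptges* most like *Igf2bp2*, *Hint1* and *Poglut1* (0.967, 0.963 and 0.963). *Etv1* encodes a transcription factor of the ETS family, and its level went from 46.4 CPM in *Ptgs*+/+ tumors to 30.6 and 30.7 in the 2 *Ptgs*-/- groups. For *Abcc4* the genes were *Adh7*, *Nceh1* and *Slc9a2* (0.977, 0.941 and 0.94), for *Pla2g4a* *Anxa5*, *Dpy19l3* and *Dusp1* (0.958, 0.918 and 0.913), and for *Hpgd* *Irx3*, *Fbxo31* and *Nudt4* (0.969, 0.93 and 0.899). *Ptges2* was most like *Ndufs8*, *Cdc34* and *Ndufb8* (0.937, 0.922 and 0.918), and *Slco2a1*, with the weakest likeness, to *Nudt5*, *Sfxn2* and *Zhx3* (0.875, 0.87 and 0.865).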

How the data were processed

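RNA of 10 whole tumors was sequenced as QuantSeq 3′ libraries. The authors trimmed the reads (BBDUK, with the first 12 bases, then fqtrim and cutadapt), used STAR for alignment to GRCm38, and took counts per gene with featureCounts. The deposited values are raw counts per gene and library, not normalized or pooled. Whether counting used strand, multiply mapped reads or molecular identifiers is not given in the sources used here, so overlapping genes and copies are uncertain. Groups come from the submitters' labels. Gene symbols and coordinates come from GENCODE M21 on GRCm38, which names 45143 of the 45706 genes.

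The main test was edgeR 4.0.16 in R 4.3.3 (filterByExpr, TMM factors, quasi-likelihood test, 1 model of all 10 libraries), and DESeq2 1.42.0 served as an alternative. The 14550 genes kept were adjusted together by the Benjamini-Hochberg method. The study's own rule adds a fold threshold, an absolute log2 value of 1.5 or more. The procedure was first tested on simulated counts. No pair of replicates was alike within counting noise (chi-square per degree of freedom 8.06 to 33.2). A count of 3 was taken as the floor, 0.234 to 0.368 CPM across libraries.

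Named genes are the 9 members, the 12 other pathway genes called in a comparison, the PGE2 receptors, neighboring or copied genes, *Ncr1* and *Klrb1c*. For each member, the 3 genes most like it by Pearson's r of log2(CPM + 1) are also named. Marker genes are named as examples of their lists. The members, the lists and the rules were chosen with earlier results of these data known. Alternatives tried were DESeq2's size factors and Wald test, library size alone, the likelihood ratio test, no filter, at least 10 counts in every library, both thresholds, only the groups compared, the experiment code as a term, the first code alone, the label number as a block, and each library left out.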

Additional observations from a re-analysis of the deposited data

Results flagged for a closer look

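Values were examined in the 4 *Ptgs*+/+ libraries for 29 genes and the *Ptgs2* share, and 2 of these 30 groups of 4 had a library whose gap to the nearest other took more of the range than Dixon's 95% critical value for 4. Chance flags about 1 in 20 such groups. For the *Ptgs2* share of cyclooxygenase counts it was replicate 3, at 37.81% against 65.2% to 68.9% in the others, a gap of 0.882 of the range. For *Dagla* it was replicate 1, at 3.115 CPM against 2.51 to 2.58 CPM, a gap of 0.89 of the range. *Abcc4* came close, with replicate 1 at 27.2 CPM and a gap of 0.828.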

How the results depend on the processing

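Over the 9 genes, 3 comparisons and 10 settings that changed the processing with all libraries or a named part of them, 259 of 270 values had the same direction and side of the threshold as reported, 2 lost the call, 6 gained it and 3 changed sign. With 1 library left out the numbers were 249, 7, 4 and 10. Where the sign changed, for these genes and the other named ones, the gene was not called in that comparison. Among libraries of the first experiment code alone, *Ptges2* in NK-depleted against *Ptgs*+/+ tumors was -0.0011, *Ptgs2* between the *Ptgs*-/- groups 0.19, and, in *Ptgs*-/- against *Ptgs*+/+ tumors, *Gm43621* -0.078 and *Ptger3* -0.081. With the code as a term *Ptges3* between the *Ptgs*-/- groups was 0.013. Leaving out 1 library moved *Gm43621* (-0.029 to 0.30) and *Ptger3* (-0.31 to 0.52, below 0 without *Ptgs*-/- replicate 3) in the first comparison, *Ptges2* (-0.034 to 0.20) and *Slco2a1* (-0.21 to 0.17) in NK-depleted against *Ptgs*+/+ tumors, and *Pla2g4a* (-0.084 to 0.47, below 0 without *Ptgs*-/- replicate 1), *Ptges3* (-0.068 to 0.016), *Ptgs1* (-0.16 to 0.071) and *Ptgs2* (-0.76 to 0.19) between the *Ptgs*-/- groups.

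The number of members called in *Ptgs*-/- against *Ptgs*+/+ tumors was 4, 2 to 5 with 1 library left out (2 without *Ptgs*-/- replicate 3) and 1 under the study's rule with a fold threshold, where only *Ptgs2* passed. With NK depletion it was 3, 2 to 4 with 1 library left out, and 1 under that rule. The 4 and the 3 include the edited genes *Ptgs1* and *Ptgs2*. Other pathway genes called in the first comparison were 12, 4 among libraries of the first code, 6 in the fit of the 2 groups alone, 0 under the fold rule and 3 to 12 with 1 library left out. In the second they were 5, 2 with at least 10 counts in every library, 1 under the fold rule and 2 to 6 with 1 library left out. Between the *Ptgs*-/- groups they were 0, and 1 (*Slco3a1*) with DESeq2's Wald test, the likelihood ratio test or no filter, and 0 to 1 with 1 library left out. In each of these cases the cause was not tested. Smaller counts limit *Hpgd*, *Ptges2*, *Mboat2*, *Pla2g2d*, *Dagla*, *Ptger1* and *Ptger2*.

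Whether label numbers pair the libraries could not be settled. Deviations from the group means correlated at -0.243 to 0.356 between same-numbered libraries, some of them of different experiment codes. Between differently numbered libraries the range was -0.426 to 0.165. With the number as a block the calls over all genes were 3237, 1769 and 195, against 3360, 1818 and 209, and *Pla2g4a* in NK-depleted against *Ptgs*+/+ tumors was -0.57 (adjusted p = 0.0414, edgeR). The block changed no other call among the 9 genes.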

Other observations

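Marker genes not described above were summed in the same way. Endothelial markers, of cells known to express *Slco2a1*, summed to 253 to 291 CPM in *Ptgs*+/+, 112 to 241 in *Ptgs*-/- and 177 to 265 CPM in NK-depleted *Ptgs*-/- tumors, with 2 of 7 called lower in the first comparison and 0 in the second (edgeR). Mast cell markers, 7 genes of cells known for *Hpgds* and COX-1, summed to 130 to 173, 50.4 to 258 and 163 to 273 CPM. Only *Hdc* was called, lower in both comparisons with *Ptgs*+/+ tumors, at 12.3 and 18.6 CPM against 41.8. The list did not move one way: in the same group order *Cpa3* was 28.3, 27.9 and 50.4 CPM and *Cma1* 45.0, 54.1 and 89.2 CPM. The 6 markers of type 1 dendritic cells, which PGE2 is known to restrain, summed to 96.2 to 104, 216 to 365 and 189 to 224 CPM, with 6 and 5 called higher. Adipocyte markers varied within groups, at 1079 to 5413, 703 to 2994 and 1876 to 3776 CPM, with none called in either comparison, and keratinocyte markers summed to 18.6 to 32.8 CPM in all libraries. Within the keratinocyte list *Krt5* was called lower in *Ptgs*-/- tumors, at 0.937 against 3.33 CPM (adjusted p = 0.026, edgeR). *Krt14* (1.39 against 4.42 CPM) and *Dsp* (1.5 against 6.15 CPM) were not called, nor was *Krt10*, the largest part of the sum, at 16.4 against 11.7 CPM.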
